A study of Homo sapiens with 16 samples.

Results

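The butyrophilin 2A and 3A family was represented by 5 genes of the 58051 in the count table: BTN3A1, BTN3A2, BTN3A3, BTN2A1 and BTN2A2. The genes were taken by their symbols, around the fall of BTN3A1 in both treatment comparisons of this study. The values of all 5 genes in those comparisons are therefore given as a description with their error and without a p-value. All 5 lie on the plus strand of chromosome 6 (GRCh38, coordinates of the deposited table), in the order BTN3A2 (ENSG00000186470, 26365159 to 26378320), BTN2A2 (ENSG00000124508, 26383096 to 26394874), BTN3A1 (ENSG00000026950, 26402237 to 26415216), BTN3A3 (ENSG00000111801, 26440472 to 26453415) and BTN2A1 (ENSG00000112763, 26457904 to 26476621). No exon base of any of them was shared with another gene of the table, and all 5 passed the filter on low counts in every comparison.

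Butyrophilins are transmembrane proteins of the immunoglobulin superfamily, related to the B7 ligands that T cells read on other cells. BTN3A1 carries an intracellular B30.2 domain that binds phosphoantigens, small pyrophosphates of the isoprenoid pathway, and together with BTN2A1 it makes a cell visible to human gamma delta T cells of the kind abundant in blood. BTN2A1 is the ligand that the gamma chain of the receptor of these T cells contacts, BTN3A2 lacks the B30.2 domain, and BTN2A2 is known for restraining T cell activation. The genes are expressed outside the immune system, epithelial cells included.

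The data were RNA-seq libraries from LNCaP, an established human prostate cancer cell line, at passage 20 and in 4 groups of 4. The siCtrl cells were transfected with Allstar control siRNA and the siXBP1 cells with siRNA against XBP1, the transcription factor of the unfolded protein response that becomes active when the nuclease IRE1 (gene ERN1) splices its mRNA, and both were left for 2 days. The Vehicle cells received DMSO and the MKC8866 cells 10 μM MKC8866, an inhibitor of the IRE1 nuclease, for 24 h. All 16 samples, controls included, were then given 30 nM thapsigargin, a blocker of the calcium pump of the endoplasmic reticulum (ER), for 3 h, so that no group without ER stress was compared. Both experiments used 1 cell line, and the labels do not say whether libraries of a group came from separate cultures, so p-values measure the spread between these libraries, which may be technical.

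Promoter sequences are shown first. BTN3A2 and BTN3A3 fell with BTN3A1 whereas BTN2A1 did not, and a link between promoter sequence and these falls was not tested. The RefSeq promoter table (GRCh38.p14, 250 bases before to 50 bases after the start, plus strand) held entries for 3 of the 5 genes, and BTN3A1 and BTN2A2 had none there. BTN3A2 is given at chr6:26364948-26365247, BTN3A3 at chr6:26440254-26440553 and BTN2A1 at chr6:26457705-26458004. Capitals mark ACGTG, the core shared by the sites that XBP1 and ATF6 bind, and CCACG, one end of the ER stress response element.
BTN3A2: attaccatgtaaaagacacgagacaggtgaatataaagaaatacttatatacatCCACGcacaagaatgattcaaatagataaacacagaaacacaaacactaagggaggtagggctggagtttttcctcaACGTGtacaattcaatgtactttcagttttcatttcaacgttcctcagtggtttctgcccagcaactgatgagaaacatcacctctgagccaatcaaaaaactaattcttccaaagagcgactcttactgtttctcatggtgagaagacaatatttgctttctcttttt
BTN3A3: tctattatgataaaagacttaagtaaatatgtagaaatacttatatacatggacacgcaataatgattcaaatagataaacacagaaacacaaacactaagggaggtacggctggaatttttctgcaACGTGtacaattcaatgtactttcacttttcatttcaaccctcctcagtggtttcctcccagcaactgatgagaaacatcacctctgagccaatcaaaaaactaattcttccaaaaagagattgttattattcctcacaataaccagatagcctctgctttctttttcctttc
BTN2A1: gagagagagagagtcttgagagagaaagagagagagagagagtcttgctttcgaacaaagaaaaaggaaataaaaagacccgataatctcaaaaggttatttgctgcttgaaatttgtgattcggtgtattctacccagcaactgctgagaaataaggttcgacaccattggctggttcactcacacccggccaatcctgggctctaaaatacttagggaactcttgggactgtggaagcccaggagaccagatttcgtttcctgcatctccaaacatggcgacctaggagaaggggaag
BTN3A2 held ACGTG with its first base at position -119 from the start and BTN3A3 held it at position -123, while BTN2A1 held neither marked motif. CCACG occurred in BTN3A2 at position -196. Both strands were searched, on which ACGTG reads CACGT and can overlap CCACG. Among 35116 promoters of the same length, 21.4% held ACGTG and 38.1% held CCACG, so both were common. The longer TGACGTGG, which contains ACGTG and occurred in 0.729% of promoters, was in none of these windows, nor was the full element of CCAAT, 9 bases of any kind and CCACG, found in 0.0769%. CCAAT alone occurred in all 3 windows and in 34.6% of all promoters. The interferon response core, in 3.57% of promoters, was found in BTN3A3, at position 36 on the minus strand. The windows of BTN3A2 and BTN3A3 were alike, with 251 identical bases of 295 aligned (85.1%), against 65.7% between BTN3A2 and BTN2A1 and 63.3% between BTN3A3 and BTN2A1. A second RefSeq promoter of BTN3A2, at chr6:26367928-26368227, held none of these motifs. A match describes letters in a window and not a bound site.

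Between 28713607 and 34509488 fragments were counted per library. XBP1 itself was 359 to 422 counts per 1000000 counted fragments (CPM, scaled by TMM over the 16 libraries) in siCtrl and 51.2 to 54.2 CPM in siXBP1. It was 483 to 539 CPM in Vehicle and 537 to 619 CPM in MKC8866. These counts per gene do not separate spliced from unspliced XBP1 mRNA, so they do not measure the effect of MKC8866 on splicing. The prostate luminal markers (5 genes, among them KLK3, TMPRSS2 and FOLH1) summed to 2510 to 2590 CPM in siCtrl, 2020 to 2080 in siXBP1, 2540 to 2640 in Vehicle and 2870 to 2970 in MKC8866, so this sum moved with the groups, and its part in the results was not tested. After siXBP1 KLK3, KLK2 and TMPRSS2 fell (log2 fold changes -0.86, -0.78 and -0.89), while FOLH1 was at -0.011 and HOXB13 at 0.006. With MKC8866 KLK3 rose by 0.46 on the log2 scale, and the other genes were between 0.018 and 0.090. Of 11 leukocyte markers, PTPRC, CD3D, CD3E, CD2, CD14, MS4A1 and TRDC had at most 3 counts in any library. CD8A had at most 8 counts in a library and ITGAM at most 37. The whole leukocyte list summed to 30.4 to 36.6 CPM in siCtrl, 32.4 to 38.7 in siXBP1, 37.6 to 39.1 in Vehicle and 36.9 to 42.5 in MKC8866, most of it from TRGC1 (28.8 CPM over all libraries), a T cell receptor gamma segment that prostate epithelial cells are known to transcribe, and CD4 (7.19 CPM).

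After XBP1 knockdown all 3 BTN3A genes were lower than in siCtrl, BTN3A1 the most. BTN3A1, the phosphoantigen sensor, was 18.98, 16.80, 17.95 and 13.43 CPM in siCtrl libraries 1 to 4. In siXBP1 it was 4.42, 4.33, 4.37 and 5.42 CPM. Every siXBP1 library lay below every siCtrl library, the lowest control included, and 1 siXBP1 library stood somewhat above the other 3. The mean was 16.8 ± 2.41 CPM in siCtrl and 4.63 ± 0.522 CPM in siXBP1 (SD, n = 4), a log2 fold change of -1.85 ± 0.11 (SE), or 3.61-fold lower. In bulk RNA, fewer cells with the transcript and less transcript per cell cannot be told apart.

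BTN3A3, a close relative of BTN3A1 that also carries a B30.2 domain, was 14.12, 14.34, 15.27 and 13.46 CPM in siCtrl. In siXBP1 it was 6.42, 6.22, 5.76 and 7.03 CPM. The groups did not overlap, and the log2 fold change was -1.17 ± 0.081 (SE), or 2.24-fold lower. BTN3A2, the member without a B30.2 domain, was 5.02, 4.94, 5.29 and 4.84 CPM in siCtrl. In siXBP1 it was 2.59, 2.57, 1.86 and 2.80 CPM. Again no library overlapped, at a log2 fold change of -1.03 ± 0.12 (SE), or 2.04-fold lower. BTN3A2 had the fewest reads of the family, 55 to 167 fragments per library, against 128 to 601 for BTN3A1.

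The BTN2A genes moved less and in different directions. BTN2A1, the partner of BTN3A1 in phosphoantigen sensing, was 52.71, 51.43, 52.16 and 51.86 CPM in siCtrl. In siXBP1 it was 61.77, 60.45, 64.36 and 62.58 CPM. All 4 siXBP1 libraries were higher, by 0.26 ± 0.044 (SE) on the log2 scale or 1.20-fold. BTN2A2, the T cell restraining member, was 26.94, 24.69, 23.40 and 24.13 CPM in siCtrl. In siXBP1 it was 21.79, 20.78, 21.45 and 19.44 CPM. All 4 were below the controls, by a log2 fold change of -0.25 ± 0.061 (SE). Of the 5 genes, 4 were lower and 1 higher without overlap, where 17.2% of the 21021 genes tested were lower and 15.5% higher without overlap. The same 4 and 1 passed edgeR's quasi-likelihood test at an adjusted p under 0.05, as did 18.2% of genes in the lower and 16.5% in the higher direction. Because these falls chose the family, nothing is read from the counts.

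**Figure D1:**
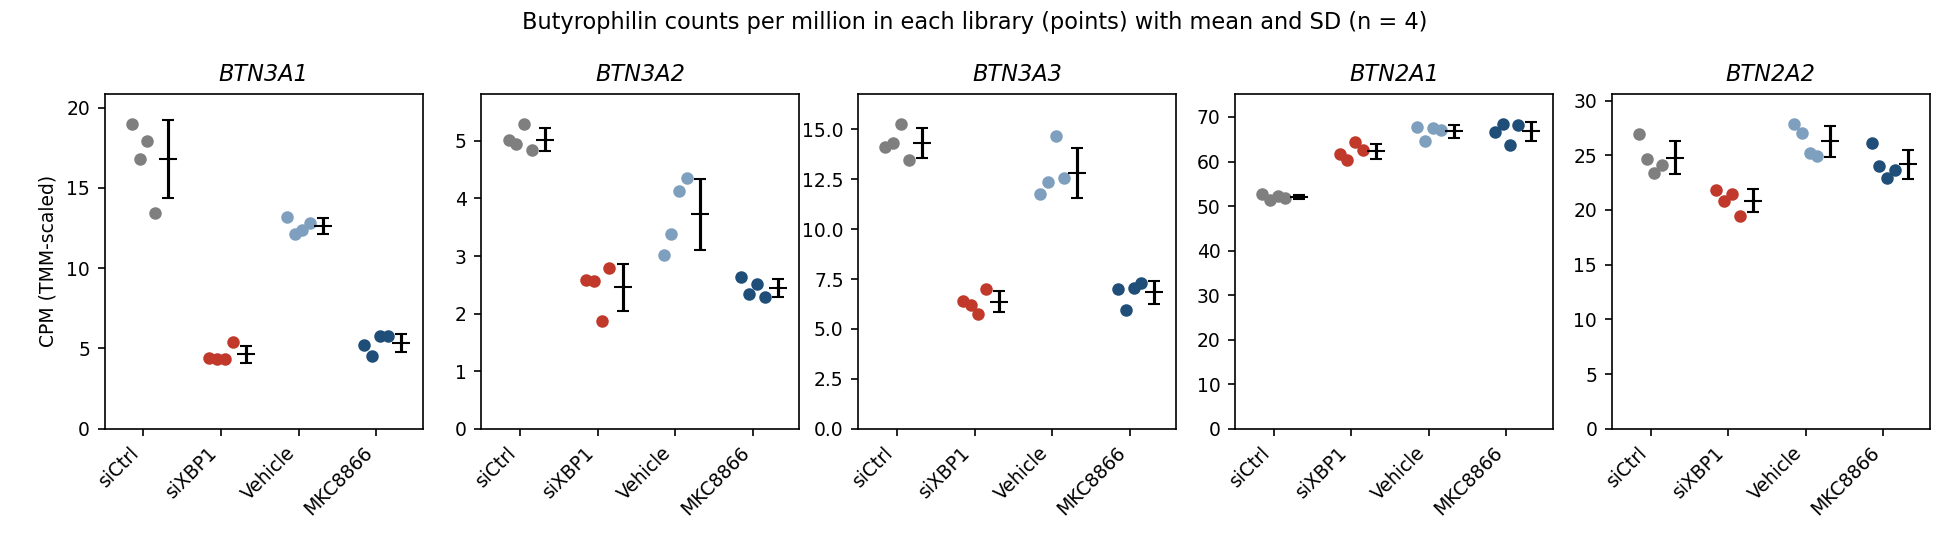
TMM-scaled CPM (y axis, linear from 0, 1 panel per gene with its own scale) of the 5 butyrophilin genes in each library (points), by group (x axis), with the mean and SD of 4 libraries beside them. For BTN3A1, BTN3A2 and BTN3A3 all siXBP1 and MKC8866 points lie below their own controls, and BTN2A1 is lowest in siCtrl, at 51.4 to 52.7 CPM.

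With MKC8866 the 3 BTN3A genes were again lower than in their control and the BTN2A genes overlapped with it. BTN3A1 was 13.20, 12.12, 12.39 and 12.84 CPM in Vehicle libraries 1 to 4. In MKC8866 it was 5.22, 4.56, 5.79 and 5.76 CPM. The groups were far apart relative to their spread, with a log2 fold change of -1.24 ± 0.085 (SE), or 2.36-fold lower. BTN3A3 was 11.77, 12.36, 14.65 and 12.55 CPM in Vehicle. In MKC8866 it was 6.99, 5.98, 7.05 and 7.32 CPM. It did not overlap either, and the log2 fold change was -0.91 ± 0.087 (SE), or 1.87-fold lower. BTN3A2 was 3.02, 3.38, 4.13 and 4.35 CPM in Vehicle. In MKC8866 it was 2.63, 2.34, 2.52 and 2.29 CPM. The gap was narrow here, between 2.63 CPM in the highest MKC8866 library and 3.02 CPM in the lowest Vehicle library, at a log2 fold change of -0.61 ± 0.13 (SE).

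BTN2A1 was 67.86, 64.64, 67.44 and 67.16 CPM in Vehicle. In MKC8866 it was 66.60, 68.43, 63.75 and 68.27 CPM. The groups overlapped throughout, with a log2 fold change of 0.00 ± 0.044 (SE). BTN2A2 was 27.86, 27.07, 25.18 and 24.95 CPM in Vehicle. In MKC8866 it was 26.08, 24.00, 22.91 and 23.66 CPM. These overlapped too, at -0.12 ± 0.060 (SE), although BTN2A2 was lower with MKC8866 in all 4 pairs of same-numbered libraries, and the fit with the replicate block gave -0.12 ± 0.047 (SE). Thus 3 of the 5 genes were lower without overlap, where 5.29% of the 21045 genes tested were. The same 3 passed edgeR's test in the lower direction, against 3.11% of genes, or 7.05% when the replicate number was added as a block, and again nothing is read from the counts because the family was chosen from this comparison.

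Whether the family responded alike to both treatments was examined as the difference between the knockdown and inhibitor responses, in 1 model over all 16 libraries. The question is separate from the falls that chose the family, but it uses the same libraries, so BTN3A1 is given without a test. BTN3A1 was lowered further by siXBP1 than by MKC8866, with a difference of -0.61 ± 0.14 (SE) on the log2 scale. BTN2A1 also responded differently, by 0.26 ± 0.057 (SE), and edgeR's quasi-likelihood test with Benjamini-Hochberg adjustment over 20357 genes gave an adjusted p of 0.000999 for it. It was higher in 4 of 4 siXBP1 libraries than in any siCtrl library, and overlapped with its control in the inhibitor experiment. For BTN3A2 the difference was -0.41 ± 0.18 (SE, adjusted p = 0.107), for BTN3A3 -0.26 ± 0.12 (adjusted p = 0.127) and for BTN2A2 -0.13 ± 0.084 (adjusted p = 0.299). These 3 missed the threshold, which does not show that the responses were equal. Without Vehicle replicate 3, the Vehicle library in which BTN3A3 was highest, the BTN3A3 difference was -0.33 with an adjusted p of 0.0443. Of the 4 genes given with a p, BTN2A1 alone passed, in the higher direction, as did 10.6% of all genes tested.

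**Figure D2:**
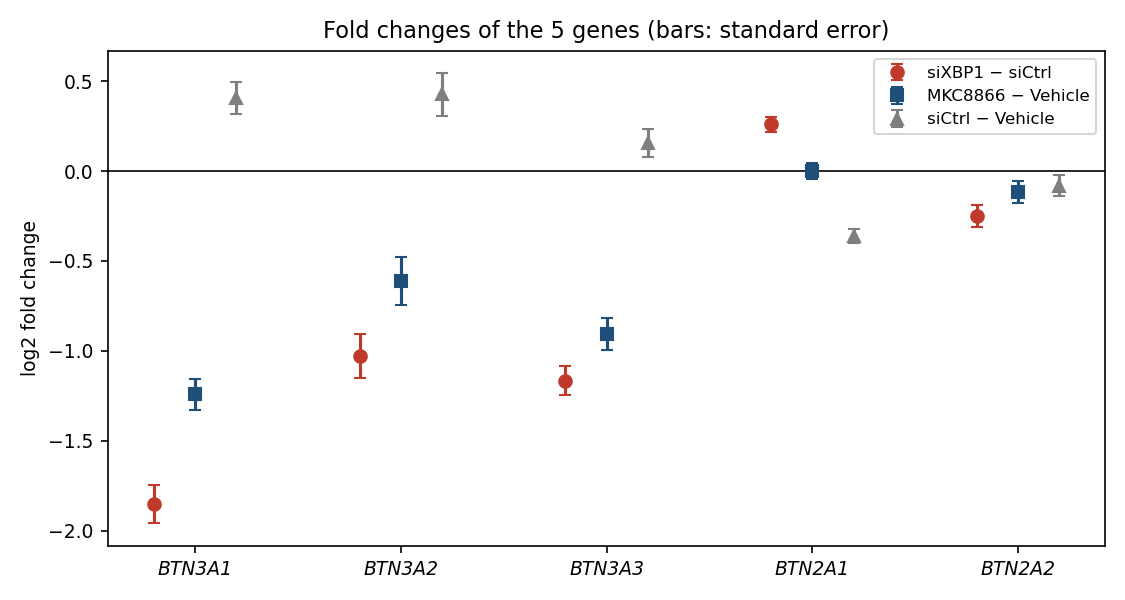
Log2 fold change (y axis) of each butyrophilin gene (x axis) for siXBP1 against siCtrl (circles), MKC8866 against Vehicle (squares) and siCtrl against Vehicle (triangles), with bars of 1 standard error. The BTN3A genes lie between -1.85 and -0.61 in both treatment comparisons and the BTN2A genes between -0.25 and 0.26, and the triangle of BTN2A1 is at -0.36.

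The levels in the control cells were also compared. The siCtrl and Vehicle means enter this comparison and the difference in response with opposite signs, so the comparisons are not independent. BTN2A1 was 52.0 ± 0.539 CPM in siCtrl and 66.8 ± 1.45 CPM in Vehicle (SD, n = 4), so it was lower in siCtrl by a log2 difference of -0.36 ± 0.040 (SE, adjusted p = 1.91e-07, edgeR), as were 7.39% of all genes at that threshold. The level that BTN2A1 reached after siXBP1, 62.3 ± 1.64 CPM, was still below the Vehicle mean. BTN3A2 was higher in siCtrl than in Vehicle, by 0.43 ± 0.12 (SE, adjusted p = 0.0123), with no overlap between the groups, where 7.65% of all genes were higher at that threshold. That call rested on 1 library, since without Vehicle replicate 1 the difference was 0.34 and the adjusted p 0.0621. BTN3A1, given without a test, was also higher in siCtrl, by 0.41 ± 0.089 (SE), although the lowest siCtrl library (13.43 CPM) lay just above the highest Vehicle library (13.20 CPM). BTN3A3 (0.15 ± 0.078, adjusted p = 0.202) and BTN2A2 (-0.08 ± 0.059, adjusted p = 0.408) overlapped between the controls. Of the 5 genes 3 did not overlap, 2 higher and 1 lower in siCtrl, where 8.98% of genes were higher and 8.79% lower without overlap. The 2 controls differ in transfection, in the time before thapsigargin and in the experiment, which cannot be told apart, and these libraries are the same controls used above.

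Levels were compared between genes per kilobase, as CPM per kilobase of deposited exon length (FPKM). That length merges all annotated exons of a gene, 3787 bases for BTN2A1, 6398 for BTN2A2 and 7042 for BTN3A2. The size of the differences between genes therefore depends on it. BTN2A1 had the highest level in every group, with 13.7 ± 0.142 FPKM in siCtrl, 16.5 ± 0.432 in siXBP1, 17.6 ± 0.383 in Vehicle and 17.6 ± 0.574 in MKC8866 (SD, n = 4). BTN2A2 came next, with group means of 3.26 to 4.11 FPKM. In the controls BTN3A1 followed, at 3.03 ± 0.435 FPKM in siCtrl and 2.28 ± 0.0861 in Vehicle, and its libraries overlapped with those of BTN3A3, which was 2.53 ± 0.133 and 2.27 ± 0.222. In Vehicle these genes were about level, and in CPM BTN3A1 (12.64) was below BTN3A3 (12.84). After treatment BTN3A1 was at 0.835 ± 0.0941 FPKM in siXBP1 and 0.961 ± 0.104 in MKC8866. It lay below BTN3A3, at 1.12 ± 0.0928 and 1.21 ± 0.104, with no library overlapping. BTN3A2 had the lowest level in all 4 groups, 0.347 to 0.713 FPKM on average. All other neighbours in the order were apart in every library of a group.

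Within a library, the ratio of genes does not depend on the library total. BTN3A1 per length was 1.20 ± 0.144 times BTN3A3 in siCtrl (SD, n = 4) and 0.743 ± 0.0432 times in siXBP1. In the inhibitor experiment it was 1.01 ± 0.117 in Vehicle and 0.795 ± 0.0328 in MKC8866. In both experiments the treated range lay below the control range, so BTN3A1 was lowered more than its relative, narrowly so with MKC8866, where the highest library reached 0.838 against 0.863 in the lowest Vehicle library. The ratio of BTN3A1 to its partner BTN2A1 was 0.220 ± 0.0304 in siCtrl and 0.129 ± 0.00317 in Vehicle. It was 0.0508 ± 0.00564 in siXBP1 and 0.0546 ± 0.00702 in MKC8866, a like range in both treatments from unlike controls. BTN2A1 exceeded BTN2A2 by 3.56 ± 0.195 times in siCtrl and 5.05 ± 0.281 times in siXBP1, without overlap, and by 4.31 ± 0.269 times in Vehicle and 4.68 ± 0.252 times in MKC8866, with overlap. These ratios follow from the values that chose the family, depend in size on the exon lengths used and carry no test.

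**Figure D3:**
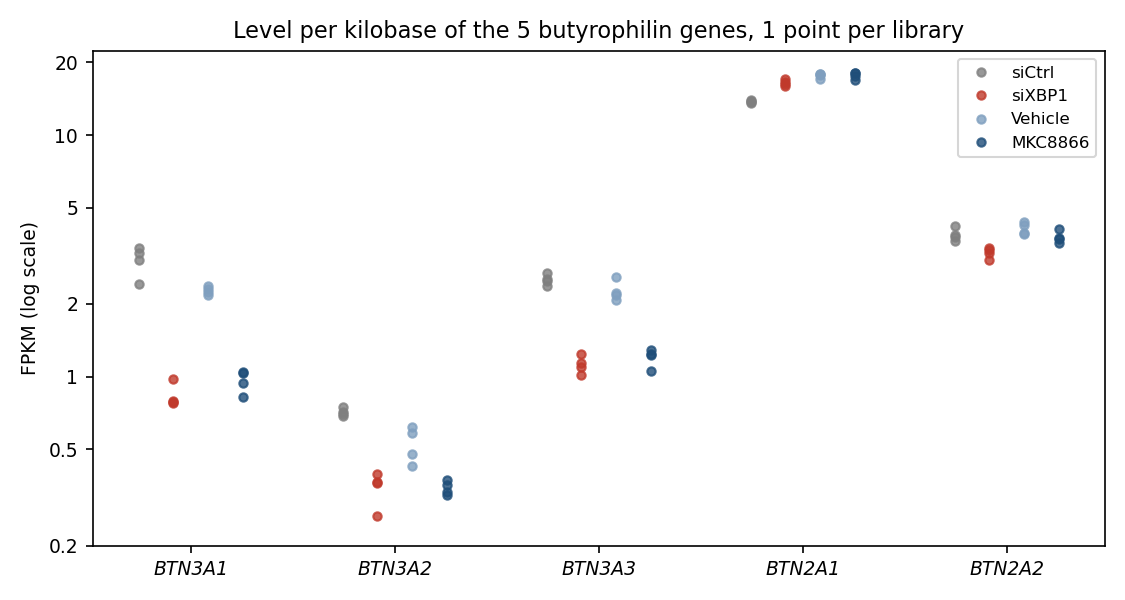
FPKM (y axis, log scale) of the 5 butyrophilin genes (x axis) in each library, coloured by group, per kilobase of the deposited exon length. BTN2A1 lies above all others and BTN3A2 below them in all 16 libraries, and BTN3A1 lies above BTN3A3 in every siCtrl library, overlaps with it in Vehicle and lies below it after either treatment.

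The BTN3A genes are close relatives in sequence, and fragments that mapped to several places had been left out of the counts. Of all 150-base windows of exon, 2.01% in BTN3A1, 1.83% in BTN3A2 and 1.74% in BTN3A3 had an exact copy within the cluster and its 200 kb flanks, and 0 of 2632 windows in BTN2A1 and 0 of 5653 in BTN2A2 had one. At 75 bases the shares were 4.59%, 8.06% and 9.07% for BTN3A1, BTN3A2 and BTN3A3, and 2.29% and 1.19% for BTN2A1 and BTN2A2. Reads with mismatches could still be split between the BTN3A genes, so the separate values of these 3 genes are to that extent uncertain.

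The genes around the family were examined over the 200 kb on either side. Of 36 other genes there, mostly histone genes, 17 were tested in both comparisons. After siXBP1 4 of the 17 were lower (H4C5, BTN2A3P, HMGN4 and ABT1) and 1 was higher, beside 18.2% and 16.5% of all genes tested, and their median log2 fold change was 0.003. BTN2A3P, the BTN2A pseudogene between BTN3A1 and BTN3A3, fell by 0.36 on the log2 scale ± 0.11 (SE, adjusted p = 0.012). ABT1, a ribosome biogenesis factor 195 kb from the BTN3A1 start, fell by 1.13 ± 0.070 (SE, adjusted p = 1.58e-11). With MKC8866 edgeR called 0 of the 17 lower, with 1 lower at an unadjusted p under 0.05 and 0 in DESeq2, which gave no adjusted p for 1 of them. In the higher direction edgeR called 1, the histone H2BC5 (0.22 ± 0.060, adjusted p = 0.0344), with 5 higher at an unadjusted p under 0.05 and 2 in DESeq2, and the median of the 17 was 0.14. ABT1 was at -0.16 ± 0.064 (adjusted p = 0.205) and BTN2A3P at -0.02 ± 0.093 (adjusted p = 0.965) with MKC8866. The difference between the responses of ABT1 was -0.97 ± 0.095 (SE, adjusted p = 3.49e-09). BTN1A1, the milk fat butyrophilin that gave the family its name, had at most 3 counts per library.

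**Figure D4:**
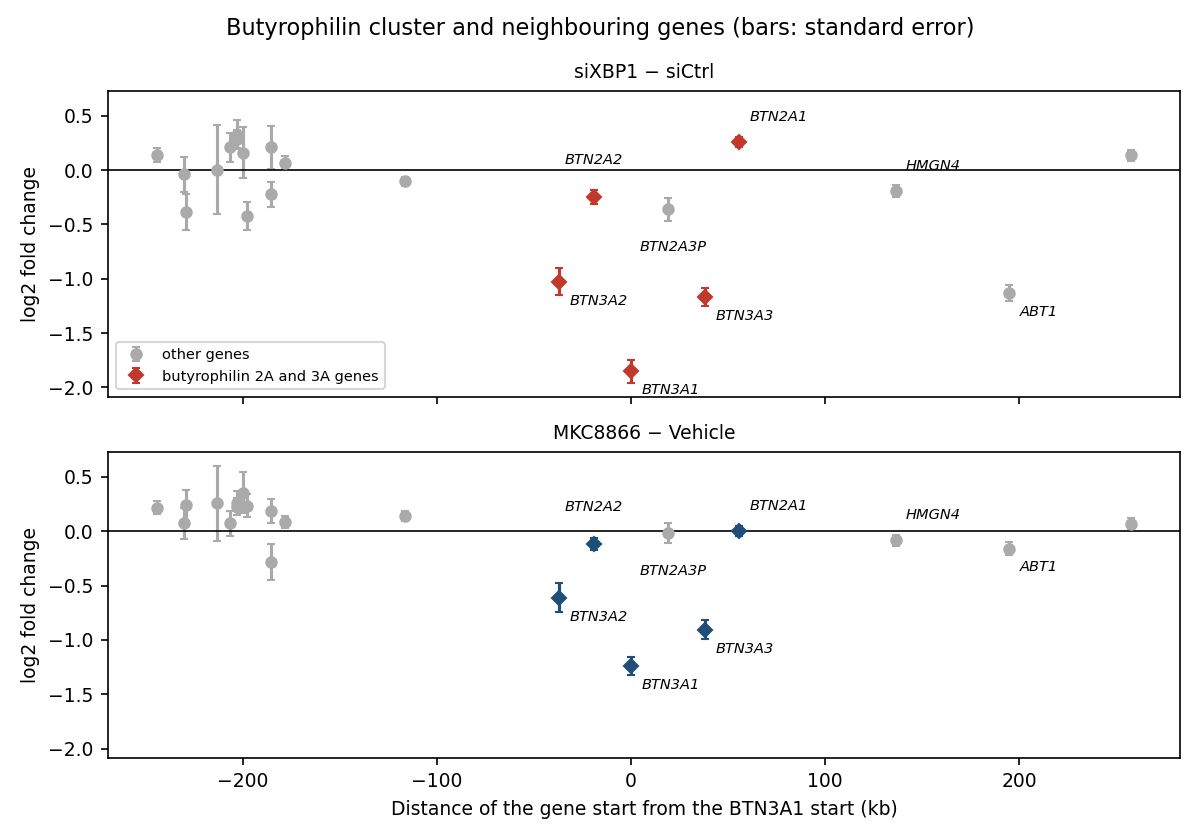
Log2 fold change (y axis, bars of 1 standard error) of the butyrophilin genes (coloured diamonds) and the other tested genes (grey) against the distance of each gene start from that of BTN3A1 (x axis, kb), for siXBP1 above and MKC8866 below. The BTN3A genes lie from -1.85 to -1.03 and from -1.24 to -0.61, and among the grey genes ABT1 is the lowest after siXBP1, at -1.13.

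Across the 16 libraries, log2 CPM of BTN3A1 followed that of BTN3A3 with Pearson's r of 0.983 and that of BTN3A2 with 0.92, against -0.548 for BTN2A1 and 0.634 for BTN2A2. After the group means were removed the values were 0.559, 0.23, 0.00179 and -0.0837, so the pooled values largely restate the group differences. Outside the family, the genes most like BTN3A1 over the 16 libraries were taken among genes with a mean of at least 1 CPM. They were SYVN1 (r = 0.985), an ER ubiquitin ligase, FICD (0.984), which modifies the chaperone BiP, and WFS1 (0.981), an ER membrane protein. CREB3L2 (0.981), a membrane-bound transcription factor, and MOGS (0.98), the glucosidase that starts glycan trimming, came next. FICD averaged 141 CPM in siCtrl, 24.4 in siXBP1, 112 in Vehicle and 26.8 in MKC8866. SYVN1 averaged 320, 117, 295 and 133 CPM in the same order. All points share their library, its depth and the group differences, and the values are a description.

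Other relatives were a list of 15 butyrophilin and B7 genes, of which 9 had enough counts to be tested. BTN2A3P and BTN1A1 of this list are also among the neighbours above. After siXBP1 1 was lower (BTN2A3P) and 5 were higher, beside 18.2% and 16.5% of all genes, and the list's median log2 fold change was 0.29 against 0.005 over all genes tested. VTCN1 (B7-H4) rose from 0.259 ± 0.0953 to 0.975 ± 0.220 CPM (SD, n = 4, log2 fold change 1.90, adjusted p = 4.16e-05), with at most 40 fragments in a library. CD274 (PD-L1), the ligand of the checkpoint receptor PD-1, rose from 4.62 ± 0.496 to 7.35 ± 0.868 CPM (0.67 ± 0.11, SE, adjusted p = 3.24e-05). It was also lower in siCtrl than in Vehicle, as BTN2A1 was (-0.69 ± 0.11, adjusted p = 2.86e-05). CD274 was 7.43 ± 1.08 CPM in Vehicle and 7.64 ± 0.210 CPM in MKC8866, so its level after siXBP1 was close to that in Vehicle. ERMAP, a red cell butyrophilin relative, rose by 0.29 ± 0.071 (adjusted p = 0.00243). BTNL2, with at most 21 fragments in a library, and CD276 (0.12 ± 0.044, adjusted p = 0.0459) made up the 5. DESeq2 gave 1 lower and 5 higher after siXBP1, and the replicate block 1 lower and 4 higher. With MKC8866 edgeR called 0 of the 9, with 1 higher at an unadjusted p under 0.05, 0 called in DESeq2 and 0 with the replicate block. DESeq2 gave no adjusted p for 1 of the 9 after siXBP1 and for 3 of the 9 with MKC8866, so it could not call those. CD274 responded more to siXBP1 than to MKC8866 (difference 0.63 ± 0.15, adjusted p = 0.00188), as did VTCN1 (1.53 ± 0.53, adjusted p = 0.0373).

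The mevalonate and isoprenoid enzymes, which make and consume the pyrophosphates that BTN3A1 binds, were tested as 9 genes. After siXBP1 4 were lower and 0 higher (0 also at an unadjusted p under 0.05 and in DESeq2), beside 18.2% and 16.5% of all genes, all by small amounts, and the median was -0.11. Of these 4, HMGCS1, MVD and FDFT1 were also higher in siCtrl than in Vehicle (adjusted p = 0.0277, 0.0349 and 0.0114). MVD, which forms isopentenyl pyrophosphate, fell by 0.29 ± 0.045 (SE, adjusted p = 2.06e-05). FDPS, which uses it, fell by 0.21 ± 0.043 (adjusted p = 0.000539), and HMGCS1 and FDFT1 also passed. IDI1, which isomerises it, was at 0.00 ± 0.059 (adjusted p = 0.992). With MKC8866 edgeR called 0 of the 9 enzymes, with 1 lower at an unadjusted p under 0.05 and 1 lower in DESeq2, and FDPS was at -0.13 ± 0.042 (adjusted p = 0.0793), while the replicate block gave 1 lower.

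Butyrophilin 3A genes and major histocompatibility complex (MHC) class I genes are known to be induced together by interferon and by the transactivator NLRC5. NLRC5 was 10.7 ± 0.772 CPM in siCtrl, 10.4 ± 0.728 in siXBP1, 10.1 ± 0.281 in Vehicle and 10.0 ± 1.18 in MKC8866 (SD, n = 4). All 4 groups overlapped, with log2 fold changes of -0.03 ± 0.080 (SE, adjusted p = 0.799) and -0.01 ± 0.083 (adjusted p = 0.972). Of the 14 transactivation factors tested, 4 were lower (RFX5, RFXAP, IRF1 and STAT2) and 4 higher (NFYA, NFYC, CREB1 and ATF1) after siXBP1, beside 18.2% and 16.5% of all genes, with a median of -0.03. DESeq2 and the replicate block each gave 3 lower and 4 higher. ATF1, a cAMP response factor, rose most (0.59 ± 0.048, adjusted p = 1.65e-09). ATF1 was also lower in siCtrl than in Vehicle (-0.37 ± 0.045, adjusted p = 7.94e-07), as was NFYA (-0.15 ± 0.046, adjusted p = 0.0215). IRF1, an interferon-induced activator of class I genes, fell after siXBP1 (-0.20 ± 0.054, adjusted p = 0.0053) and rose with MKC8866 (0.24 ± 0.051, adjusted p = 0.00498). With MKC8866 the only other call was CIITA, lower at about 1 CPM (-0.83 ± 0.23, adjusted p = 0.039).

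Of 11 class I presentation genes tested, 3 were lower after siXBP1 and 1 higher, beside 18.2% and 16.5% of all genes. TAP2, a subunit of the peptide transporter, fell from 19.6 ± 0.744 to 9.79 ± 1.27 CPM (log2 fold change -1.0 ± 0.080, SE, adjusted p = 1.33e-09), while its partner TAP1 was at -0.10 ± 0.053 (adjusted p = 0.159). B2M, the class I light chain, fell by 0.23 ± 0.054 (adjusted p = 0.00202) and HLA-E by 0.28 ± 0.062 (adjusted p = 0.00092). HLA-C (-0.06 ± 0.042, adjusted p = 0.301) missed the threshold, and counts of polymorphic class I heavy chain genes are uncertain. With MKC8866 edgeR called 0 of the 11, with 1 higher at an unadjusted p under 0.05, 1 higher in DESeq2 and 1 higher with the replicate block. TAP2 was then at 0.05 ± 0.062 (adjusted p = 0.816), and the difference between its responses was -1.04 ± 0.10 (adjusted p = 2.57e-09).

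Finally, 4 genes of proteins reported to act with BTN3A1 were examined. RHOB, a small GTPase linked to the activation of BTN3A1, rose in both comparisons, by 0.33 ± 0.045 (SE, adjusted p = 3.26e-06) after siXBP1 and by 0.25 ± 0.042 (adjusted p = 0.000287) with MKC8866. PPL (periplakin), a cytoskeletal linker that binds BTN3A1, fell after siXBP1 (-0.26 ± 0.072, adjusted p = 0.00664) and was at 0.13 ± 0.070 (adjusted p = 0.381) with MKC8866. EVPL (envoplakin), its relative, rose with MKC8866 (0.23 ± 0.052, adjusted p = 0.00713) and was at -0.06 ± 0.046 (adjusted p = 0.323) after siXBP1. ABCA1, a lipid transporter linked to phosphoantigen release, rose after siXBP1 from 0.747 ± 0.170 to 1.35 ± 0.231 CPM (adjusted p = 0.00442) and was at -0.07 ± 0.25 (adjusted p = 0.946) with MKC8866.

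**Figure D5:**
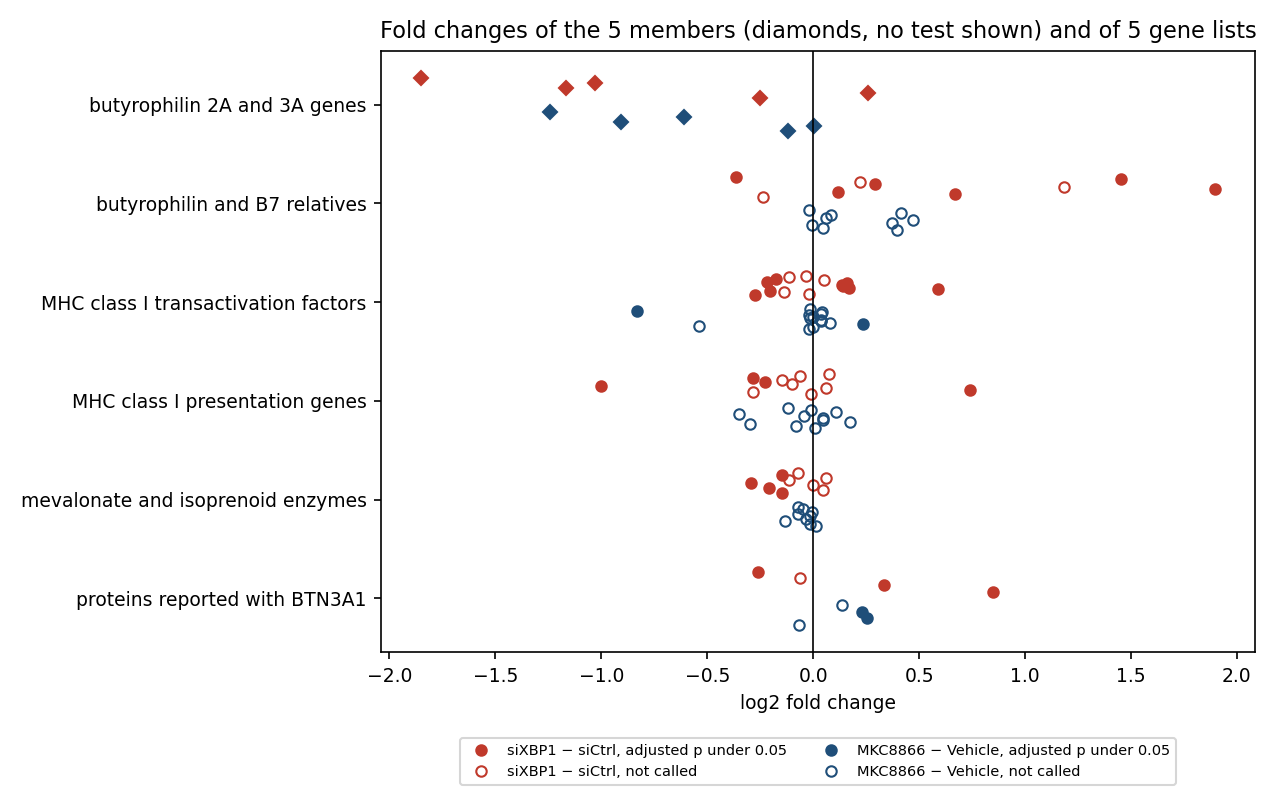
Log2 fold change (x axis) of the 5 butyrophilin genes (diamonds, no test shown) and of every tested gene of 5 related lists (y axis), for siXBP1 and MKC8866, with filled circles at an adjusted p under 0.05. The 3 BTN3A diamonds are at -0.61 or below in both comparisons, and TAP2 is the circle at -1.0 after siXBP1.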

How the data were processed

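RNA-seq counts of fragments per gene were used as deposited. The authors made stranded paired-end libraries, aligned them to GRCh38 with STAR (2.5.2a) and counted fragments with featureCounts (1.5.0) on Ensembl 85, ignoring strand and leaving out multimapping fragments. Symbols came from GENCODE 44 for 56948 of 58051 genes. Knockdown and inhibitor libraries were each set against their controls by edgeR (4.0.16, R 4.3.3) quasi-likelihood tests, two-sided, with TMM scaling and Benjamini-Hochberg adjustment over all genes for which both groups held a library with more than 5 counts. The difference between responses and the control groups were tested in 1 model over 16 libraries. The threshold was an adjusted p under 0.05. The tests were checked on simulated data. DESeq2 (1.42.0), other scalings, filters, a replicate block and leaving out each library were tried. Members and gene lists were chosen with earlier results of these data known. The rule for named genes took all 5 members, neighbours within 200 kb that are butyrophilins or passed the test, and up to 4 genes of each list by mean CPM or call. It also took the 5 genes outside the family with the highest correlation to BTN3A1 at a mean of at least 1 CPM. List genes beyond 4 were named after their values were seen. A few list genes are not reported here and were left out of the lists' counts and sums. Whether replicate numbers pair the libraries was checked by the correlation of same-numbered deviations from group means over 15041 genes: 0.213, 0.379, 0.102 and 0.225 in the inhibitor experiment, all over 0.1, so the numbers were taken to pair these libraries, from the data and not from the labels. Number 3 is doubtful, since Vehicle 3 correlated more with MKC8866 1 (0.159) than with its own number. The MKC8866 values, errors and p-values given are those of the fit without the block, except where the block is named. With the block more genes passed, 1484 lower and 1262 higher against 654 and 287. Genes short of the threshold without it may therefore pass with it, and the neighbours are given without it only. Promoter alignments were made with biopython (1.88).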

Additional observations from a re-analysis of the deposited data

Results flagged for a closer look

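Within siXBP1, BTN3A1 was 5.415 CPM in library 4, against 4.33 to 4.42 CPM in the other 3, a gap beyond Dixon's critical value for 4 samples. It was 1 of 20 groups of 4 libraries examined, and chance flags about 1 in 20 groups. Without siXBP1 replicate 4 the log2 fold change of BTN3A1 after knockdown was -1.93.

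The responses of BTN3A1 and BTN2A1 to the treatments differed. For BTN3A1 the siXBP1 response minus the MKC8866 response was -0.61 on the log2 scale, and this gene was chosen from the same libraries. For BTN2A1 it was 0.26 (adjusted p = 0.000999, edgeR), with all 4 siXBP1 libraries above all siCtrl libraries and overlap between MKC8866 and Vehicle. The treated levels of BTN3A1 were closer than the control levels: 4.63 ± 0.522 and 5.33 ± 0.578 CPM after siXBP1 and MKC8866, from 16.8 ± 2.41 and 12.6 ± 0.478 CPM (SD, n = 4).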

How the results depend on the processing

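The alternatives were DESeq2, RLE size factors, both other filters on low counts, the fit of all 16 libraries and the replicate block. They left the direction of the butyrophilin values where it was, except for BTN2A1 with MKC8866, at 0.0021 on the log2 scale. That value turned to -0.0015 or closer to 0 under DESeq2, RLE, the stricter filter and the fit of all 16. Values given with a p-value also kept their side of the threshold. The number of genes called with MKC8866 changed with the block, from 654 to 1484 lower and from 287 to 1262 higher, and from 180 to 484 were called higher when 1 library was left out (180 without MKC8866 replicate 1, 484 without replicate 2, 184 without replicate 3, 191 without replicate 4 and 188 without Vehicle replicate 3), and the cause was not tested. In the knockdown experiment same-numbered libraries correlated at 0.001 to 0.068, not always best with their own number, and share only a number there. The block gave 3846 lower and 3477 higher genes against 3836 and 3475. No block was fitted for siCtrl against Vehicle, whose libraries come from different experiments. Leaving out 1 library gave -0.33 to -0.22 for the BTN3A3 difference between responses, past the threshold without Vehicle replicate 3, and 0.34 to 0.51 for BTN3A2 in siCtrl against Vehicle, short of it without Vehicle replicate 1. The other values of the 5 genes that are given with a p-value kept their call. Those given without one kept their direction, except BTN2A1 with MKC8866 (-0.016 to 0.023). On library totals in place of TMM, BTN2A1 in siCtrl was 13.5 FPKM, more than 1 SD from 13.7. Depth limits BTN3A2 most, at 55 to 167 fragments per library.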
